A study of Mus musculus with 7 samples.

Results

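CDK inhibitors are small proteins that bind cyclin-dependent kinases and hold back the cell cycle, and pocket proteins are the substrates through which those kinases release E2F transcription factors. The 10 genes described here are the Cip/Kip inhibitors Cdkn1a (p21), Cdkn1b (p27) and Cdkn1c (p57), the INK4 inhibitors Cdkn2a (p16Ink4a and p19Arf), Cdkn2b (p15), Cdkn2c (p18) and Cdkn2d (p19Ink4d), and the pocket proteins Rb1, Rbl1 (p107) and Rbl2 (p130). They were found by gene name among the array's non-control probes, and they take up 19 of 56605 probes and 10 of 37325 gene names. INK4 proteins block CDK4 and CDK6, Cip/Kip proteins bind a wider range of cyclin and kinase pairs, and underphosphorylated pocket proteins sit on E2F-bound promoters. Adult heart muscle cells have largely left the cell cycle, and several of these inhibitors and pocket proteins are known to take part in holding that state. Cdkn1a is also a well known target gene of p53.

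Total RNA from hearts of adult female mice was measured on 7 one-colour Agilent arrays, 3 from the group Wild Type (Wild Type_181, Wild Type_183, Wild Type_189) and 4 from Mutant (Mutant_175, Mutant_182, Mutant_187, Mutant_188). Mutant samples are labelled Brg1 and Brm knockout and Tg + Tamoxifen: per the design text, tamoxifen activated a Cre-ERT under the myosin heavy chain promoter (MHC), so that Brg1 was deleted in cardiomyocytes of adult animals already null for Brm. Wild Type samples are labelled NTg + Tamoxifen, so both groups received tamoxifen but the transgene was present in Mutant alone, and the sources used here do not say whether Wild Type animals carried Brm. The labels name cardiomyocytes but describe RNA taken from heart with a tissue kit and no isolation of cells, and they do not state that each sample came from a separate animal, so the p-values rest on sample-to-sample spread, which may be technical. The gene of Brg1 is Smarca4 and that of Brm is Smarca2, and SWI/SNF chromatin remodelling complexes use either as their motor. The design text counts more samples than these 7, and any others were not analysed here.

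Values are given as signal over the array, meaning the background-corrected signal divided by the 75th percentile of its own array, and differences are Mutant minus Wild Type on the log2 scale. A gene is read at its brightest usable probe and is called when limma's adjusted p over all 34481 usable probes is under 0.05. Probe positions are on mm9 as the array files give them, and exon and UTR annotation on that build was not used here. The Smarca4 signal ran from 32.8 to 34.7 in Wild Type and from 5.87 to 14.9 in Mutant, a difference of -1.87 (SE 0.29, limma adjusted p = 0.0021), and the lowest value belonged to Mutant_175. Smarca2 differed by 0.08 (adjusted p = 0.602) at its brightest probe; the sources used here do not give the deleted part of either gene, so whether the probes lie within it was not tested. Arrays correlated at 0.992 to 0.994 within Wild Type and 0.969 to 0.990 within Mutant, where the lowest pairs all involved Mutant_175, and 58.1% to 63.6% of spots were well above background. All 7 arrays lie on 1 slide with Wild Type in row 1 and Mutant in row 2, so position on the slide and genotype cannot be told apart.

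Of the 10 genes, 4 rose in Mutant (Cdkn1a, Cdkn2b, Cdkn2c and Cdkn2d), 2 fell (Cdkn1b and Cdkn1c), and Cdkn2a, Rb1, Rbl1 and Rbl2 were not called. Among all 22971 genes measured, 41.5% were called, 16.1% higher and 25.4% lower. Groups did not overlap for 6 of the 10 genes, 4 with Mutant above and 2 with Mutant below, against 51.2% of all genes (19.6% above and 31.6% below). Of the 17 usable probes of these genes, 6 were called higher and 2 lower. Of all usable probes 40.5% were called, 16.5% higher and 24% lower. Among those 6 was the Rbl1 probe A_55_P2024773, kept through Mutant, with 1 of 3 Wild Type and 4 of 4 Mutant arrays well above background. The median difference was 0.54 over the 10 genes and -0.12 over all genes. Both falls depended on how arrays were scaled: with scaling to spike-in RNA, Cdkn1b stood at 0.08 and Cdkn1c at -0.26, and neither was called.

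**Figure D1:**
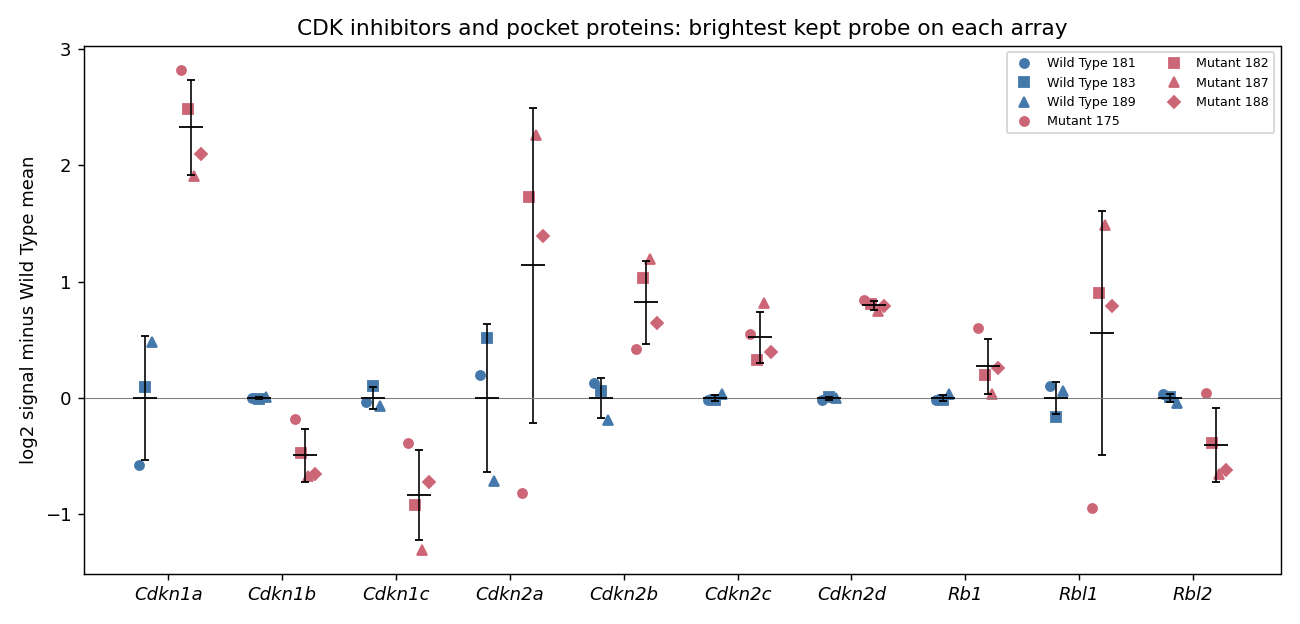
Log2 signal of each gene's brightest usable probe on each of the 7 arrays, minus the Wild Type mean of that gene; horizontal ticks are group means and bars 1 SD (3 Wild Type, 4 Mutant). Mutant points stand clear of Wild Type for Cdkn1a, Cdkn2b, Cdkn2c and Cdkn2d above and for Cdkn1b and Cdkn1c below (the calls of the last 2 were lost with spike-in RNA), while Mutant_175 lies apart from the other Mutant arrays for Cdkn2a and Rbl1.

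Promoters of Cdkn1a, Cdkn2d and Rbl1 are shown first, 250 bases ending just before the annotated start, from RefSeq on GRCm38.p6. Cdkn1a is shown since a probe matches its upstream variant alone, though none matches its downstream variant alone. Cdkn2d is shown since it had the smallest adjusted p, and Rbl1 since it has probes for separate variants. Capitals mark matches, on either strand, to the p53 response element, to GGGCGG (the GC box bound by Sp1) or to TTTCGCGC (an E2F site). For 8 of the 10 genes the RefSeq table held 11 promoters, and Cdkn1c and Rb1 were not among them.
Cdkn1a upstream start, chr17:29090729-29090978, plus strand: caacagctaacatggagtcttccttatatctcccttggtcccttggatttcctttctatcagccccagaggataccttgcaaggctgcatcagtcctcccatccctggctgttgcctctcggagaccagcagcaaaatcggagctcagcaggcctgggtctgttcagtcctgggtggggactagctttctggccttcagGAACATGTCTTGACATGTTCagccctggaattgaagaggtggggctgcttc
Cdkn1a downstream start, chr17:29093519-29093768, plus strand: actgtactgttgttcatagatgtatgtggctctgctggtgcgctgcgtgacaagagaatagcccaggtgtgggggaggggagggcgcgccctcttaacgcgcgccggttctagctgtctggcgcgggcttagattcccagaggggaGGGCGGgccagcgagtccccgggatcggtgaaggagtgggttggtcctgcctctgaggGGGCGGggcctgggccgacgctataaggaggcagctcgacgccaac
Cdkn2d, chr9:21291210-21291459, minus strand: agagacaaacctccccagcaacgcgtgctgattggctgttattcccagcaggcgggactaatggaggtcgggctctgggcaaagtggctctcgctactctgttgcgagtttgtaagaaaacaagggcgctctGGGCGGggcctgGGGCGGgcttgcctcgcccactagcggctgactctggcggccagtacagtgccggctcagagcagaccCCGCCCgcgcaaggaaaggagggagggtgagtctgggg
Rbl1, chr2:157204535-157204784, minus strand: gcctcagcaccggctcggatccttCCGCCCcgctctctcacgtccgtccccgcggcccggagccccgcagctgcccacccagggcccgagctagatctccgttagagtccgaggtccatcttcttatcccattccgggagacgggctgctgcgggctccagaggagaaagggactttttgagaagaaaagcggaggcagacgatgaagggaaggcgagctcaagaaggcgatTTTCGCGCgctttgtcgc
The Cdkn1a match to the p53 element lies 51 to 32 bases before the upstream start and carries 1 mismatch to the consensus. With at most 1 mismatch the element was in 25 of 32851 promoters of this length (0.0761%), and without a mismatch in 3. The tolerance of 1 mismatch was chosen after the sequence was seen. The downstream Cdkn1a promoter holds 2 GC boxes and the Cdkn2d promoter 3, a motif that 32.7% of promoters share. The E2F match in Rbl1 lies 18 to 11 bases before the start, and TTTCGCGC was in 0.256% of promoters. The related TTTGGCGC, in 0.417% of promoters, was in none of the 11, and CCAAT, the NF-Y box in 33.8% of promoters, was in those of Cdkn1b and Cdkn2d. The matches describe the letters alone.

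Among the Cip/Kip genes, Cdkn1a had the largest rise. Its probe A_51_P363947 lies at chr17:29237377-29237436 (mm9, plus strand) and matches both RefSeq variants at base 1619 of the transcript. Signals over the array were 2.10 in Wild Type_181, 3.35 in Wild Type_183 and 4.37 in Wild Type_189, and 22.1 in Mutant_175, 17.5 in Mutant_182, 11.8 in Mutant_187 and 13.4 in Mutant_188. Every Mutant array was above every Wild Type array, although Wild Type itself spread by more for this gene than for the other inhibitors that were called (SD 0.54 on the log2 scale, n = 3). The difference was 2.33 (SE 0.30, 95% interval 1.62 to 3.03), a 5.02-fold rise with a limma adjusted p of 0.0010. Unlike Smarca4 signal, which was lowest in Mutant_175, Cdkn1a signal was highest there, and without that array the rise was 2.16.

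The other Cdkn1a probes did not pass the test, and both were dim. A_55_P1986282 (chr17:29227986-29228045, mm9) matches variant 2 alone, at base 55 of the transcript. It lies 9391 bases before the shared probe on mm9, more than the 6954 bases from the downstream start to the gene's end on GRCm38.p6, so it belongs to the transcript from the upstream start. Its signals were 0.0948, 0.0247 and 0.0520 in Wild Type and 0.0725, 0.0511, 0.0712 and 0.0532 in Mutant, in the order above, and the groups overlapped. It exceeded background clearly on 2 of 3 Wild Type and 4 of 4 Mutant arrays, and its difference was 0.31 (95% interval -0.66 to 1.27, adjusted p = 0.588), or -0.20 without Wild Type_183.

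A_55_P1976204 (chr17:29235299-29235358, mm9), designed to an Ensembl transcript, gave 0.0258, 0.0258 and 0.0718 in Wild Type and 0.0520, 0.0483, 0.0685 and 0.0597 in Mutant. The Wild Type arrays fell on both sides of the Mutant range, and the difference was 0.64 (95% interval -0.21 to 1.49, adjusted p = 0.197). Without Wild Type_189 it was 1.14 (adjusted p = 0.0065). It was kept through Mutant, since 1 of 3 Wild Type and 4 of 4 Mutant arrays had it well above background. The rise at the shared probe exceeded that at A_55_P1976204 by 1.68 (exact two-sided permutation test p = 0.057, 0.15 adjusted over 8 probe pairs). It exceeded that at A_55_P1986282 by 2.02 (exact two-sided permutation test p = 0.057, 0.15 adjusted over 8 probe pairs). With 3 Wild Type and 4 Mutant arrays, 0.057 is the smallest p this two-sided test can give, so no outcome could pass 0.05. Wild Type arrays also did not measure these dim probes throughout, so the permutation tests cannot decide whether the probes differ.

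Cdkn1b, whose protein p27 restrains cyclin E and CDK2 in resting cells, fell by 0.49 on the log2 scale (SE 0.15, limma adjusted p = 0.031) at A_55_P2026562, and stood at 0.08 (adjusted p = 0.789) with spike-in scaling. That probe lies at chr6:134875424-134875483 (mm9, plus strand). Its Wild Type signals were 7.23, 7.23 and 7.29, and its Mutant signals were 6.41, 5.23, 4.57 and 4.60. Mutant lay wholly below the narrow Wild Type range, with Mutant_175 nearest to it. The call was lost in 12 of 20 alternative settings, among them quantile normalization (-0.37, adjusted p = 0.074) and the removal of any array other than Mutant_175. The dimmer probe A_52_P673863 (chr6:134873606-134873665, mm9) ran from 0.0709 to 0.119 in Wild Type and from 0.0262 to 0.0945 in Mutant, and its difference of -0.63 (SE 0.43, adjusted p = 0.278) was not called.

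Cdkn1c encodes p57, the product of an imprinted gene that is expressed from the maternal allele. It has 1 probe here, A_55_P2733752 (chr7:150644297-150644356, mm9, minus strand). Signals were 14.1, 15.5 and 13.7 in Wild Type and 11.1, 7.62, 5.84 and 8.73 in Mutant, with no overlap. The difference was -0.83 (SE 0.21, 95% interval -1.33 to -0.34, limma adjusted p = 0.017), a 1.78-fold fall. It was -0.26 (adjusted p = 0.342) with spike-in scaling, and -0.78 (adjusted p = 0.066) without Wild Type_183.

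Of the INK4 genes, Cdkn2b, Cdkn2c and Cdkn2d rose and Cdkn2a was not called, and Cdkn2d had the smallest SE. Cdkn2d is the INK4 gene whose level is known to vary through the cell cycle, and its probe A_55_P2022251 lies at chr9:21092934-21092993 (mm9, minus strand). Wild Type signals were 7.69, 7.83 and 7.77, and Mutant signals were 13.9, 13.6, 13.1 and 13.4. Both groups were tight, with an SD of 0.013 in Wild Type and 0.037 in Mutant on the log2 scale, and Mutant_175 was not set apart. The difference was 0.80 (SE 0.10, 95% interval 0.56 to 1.03, limma adjusted p = 0.00083), a 1.74-fold rise, and it was called in all 20 alternative settings with values from 0.78 to 1.37.

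Cdkn2b, which encodes the inhibitor p15 known as a target of TGF-beta signalling, rose by 0.82 (SE 0.21, limma adjusted p = 0.016) at A_52_P498241 (chr4:88952437-88952496, mm9, minus strand). Its signals were 0.241, 0.231 and 0.193 in Wild Type and 0.295, 0.451, 0.504 and 0.345 in Mutant. The groups did not overlap, and Mutant_175 was again the nearest to Wild Type. Without Wild Type_189 the rise was 0.73 and was not called (adjusted p = 0.067). The second probe, A_55_P1988183 (chr4:88952276-88952335, mm9), differed in the same direction by 0.63 (95% interval 0.09 to 1.17) but was not called (adjusted p = 0.064). Its Wild Type range of 0.167 to 0.271 met the Mutant range of 0.261 to 0.419. Over the 35 splits of the arrays, the exact two-sided permutation test of the difference between both probes gave p = 0.11. Adjusted over 8 probe pairs, that permutation p was 0.23. The smallest p this two-sided test can give with these arrays is 0.057.

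Cdkn2a, the neighbouring gene on chromosome 4, makes p16Ink4a and p19Arf from separate first exons. Its probe A_55_P2008437 (chr4:88920405-88920464, mm9, minus strand) matches both RefSeq transcripts, so the products cannot be told apart. Signals were 0.0592, 0.0742 and 0.0316 in Wild Type and 0.0294, 0.172, 0.249 and 0.136 in Mutant. Mutant_182, Mutant_187 and Mutant_188 were above all Wild Type arrays, whereas Mutant_175 was below them and not well above background. The difference of 1.14 (95% interval -0.50 to 2.78) was not called (limma adjusted p = 0.231), and without Mutant_175 it was 1.80 (adjusted p = 0.0076). The other Cdkn2a probe, A_51_P144813 (chr4:88920545-88920604, mm9), was not well above background on any array and was left out of the test.

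Cdkn2c, which encodes p18, rose by 0.52 (SE 0.14, 95% interval 0.19 to 0.86, limma adjusted p = 0.023), a 1.44-fold rise. Its probe A_51_P513719 (chr4:109333779-109333838, mm9, minus strand) gave 2.46, 2.46 and 2.55 in Wild Type and 3.64, 3.12, 4.40 and 3.28 in Mutant. All Mutant arrays were above Wild Type, with Mutant_187 the highest. The second probe, A_51_P513720 (chr4:109333757-109333818, mm9), rose by 0.46 (adjusted p = 0.048), and since it shares 40 bases with the first it is no independent measurement. Its call was lost in 10 of 18 alternative settings, among them the removal of any 1 array (adjusted p from 0.054 to 0.145). Leaving out any 1 Wild Type array ended the call of the first probe, with adjusted p from 0.068 to 0.078, and so did slide column as a block (0.51, adjusted p = 0.057).

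**Figure D2:**
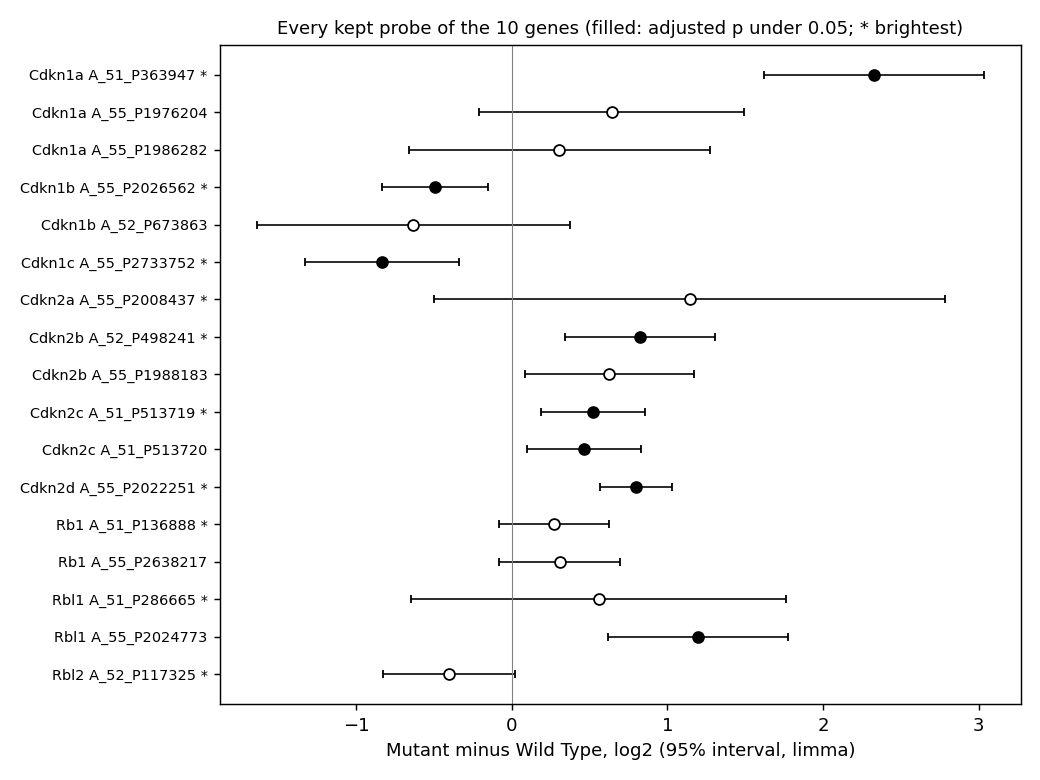
Mutant minus Wild Type on the log2 scale for each of the 17 usable probes of the 10 genes, with limma's 95% interval (3 Wild Type and 4 Mutant arrays); filled points are called and asterisks mark the brightest probe of each gene. The Cdkn1a probe shared by both variants stands at 2.33 while its other probes stand at 0.31 and 0.64, and the intervals of Cdkn2a and of the first Rbl1 probe are the broadest.

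None of the pocket protein genes was called at its brightest probe. Rb1, the retinoblastoma gene, had signals of 4.07, 4.07 and 4.21 in Wild Type and 6.24, 4.74, 4.21 and 4.92 in Mutant at A_51_P136888 (chr14:73595408-73595467, mm9, minus strand). Mutant_175 was the highest and Mutant_187 lay at the top of the Wild Type range. The difference was 0.27 (95% interval -0.08 to 0.62, limma adjusted p = 0.187). It was called with spike-in scaling (0.84, adjusted p = 0.0084) and with normexp background correction followed by quantile normalization (0.40, adjusted p = 0.042). Quantile normalization alone gave 0.39 (limma adjusted p = 0.069). The second probe, A_55_P2638217 (chr14:73596841-73596900, mm9), differed by 0.31 (95% interval -0.08 to 0.70, adjusted p = 0.176), and by 0.42 (adjusted p = 0.044) without Mutant_187. Its signals ran from 0.738 to 0.861 in Wild Type and from 0.776 to 1.20 in Mutant.

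Rbl1 encodes p107, itself a product of an E2F-regulated gene. Of its 3 probes 1 was called higher, 1 differed in the same direction without a call and 1 was left out of the test. At A_51_P286665 (chr2:156972143-156972202, mm9, minus strand), in variant 1, signals were 0.180, 0.150 and 0.174 in Wild Type and 0.0870, 0.313, 0.469 and 0.291 in Mutant. Mutant_175 was below every Wild Type array and the other Mutant arrays were above them. The difference was 0.56 (95% interval -0.64 to 1.76, limma adjusted p = 0.420), and without Mutant_175 it was 1.06 (adjusted p = 0.0060).

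At A_55_P2024773 (chr2:157000761-157000820, mm9), in Rbl1 variant 2, signals were 0.0272, 0.0276 and 0.0322 in Wild Type and 0.0434, 0.0748, 0.0922 and 0.0644 in Mutant. Here no Mutant array overlapped Wild Type, Mutant_175 included. The difference of 1.20 (SE 0.25, limma adjusted p = 0.0073) was called. However, 1 of 3 Wild Type arrays had the probe well above background, so it was kept through Mutant and the size of the rise is uncertain. The exact two-sided permutation test of the difference between both tested Rbl1 probes gave p = 0.057 (0.15 adjusted over 8 probe pairs). A p of 0.057 is the smallest that permutation test can give with these arrays, and the variant 2 probe was dim in Wild Type. The test therefore cannot decide whether the probes differ. The third probe, A_55_P2601922, spans a splice junction of variant 2 (chr2:157014059-157017689, mm9), was well above background on Mutant_187 alone, and was left out of the test.

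Rbl2 encodes p130, the pocket protein that prevails in resting cells and forms the DREAM complex with MuvB proteins. At A_52_P117325 (chr8:93647120-93647179, mm9, plus strand) its signals were 0.726, 0.712 and 0.690 in Wild Type and 0.729, 0.544, 0.452 and 0.462 in Mutant. Mutant_175 was level with Wild Type and the other Mutant arrays were below it. The difference was -0.40 (95% interval -0.83 to 0.02, limma adjusted p = 0.115). Without Mutant_175 it was -0.55 (adjusted p = 0.0084), and with spike-in scaling it was 0.17 (adjusted p = 0.588).

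Mutant_175 therefore bore on Cdkn2a, Rbl1 and Rbl2, which were called without it. The counts without that array were 6 genes higher and 3 lower, and 48.3% of all genes were then called, 19.3% higher and 29% lower. It also had the lowest Smarca4 signal and the lowest correlations within Mutant, and the part of these differences in its Cdkn2a, Rbl1 and Rbl2 values was not tested.

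Scaling changed the sign of Cdkn1b and Rbl2 and the call of Cdkn1b, Cdkn1c and Rb1. Measured against 7 spike-in probes, the median of all genes moved by 0.57, from -0.12 to 0.45, and 83.5% of all calls were higher, against 38.7% with the array percentile, 44.9% with quantile normalization and 49.5% with a percentile taken over the probes that every array measured above background. Under spike-in scaling 5 of the 10 genes were called higher (Cdkn1a, Cdkn2b, Cdkn2c, Cdkn2d and Rb1) and 0 lower (0 at an unadjusted limma p under 0.05), where 44.7% of all genes were called, 37.3% higher and 7.4% lower. The members' median was then 1.10. Cdkn1b at 0.08, Cdkn1c at -0.26 and Rbl2 at 0.17 all stayed below the median of all genes under that scaling, as they did with the array percentile.

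**Figure D3:**
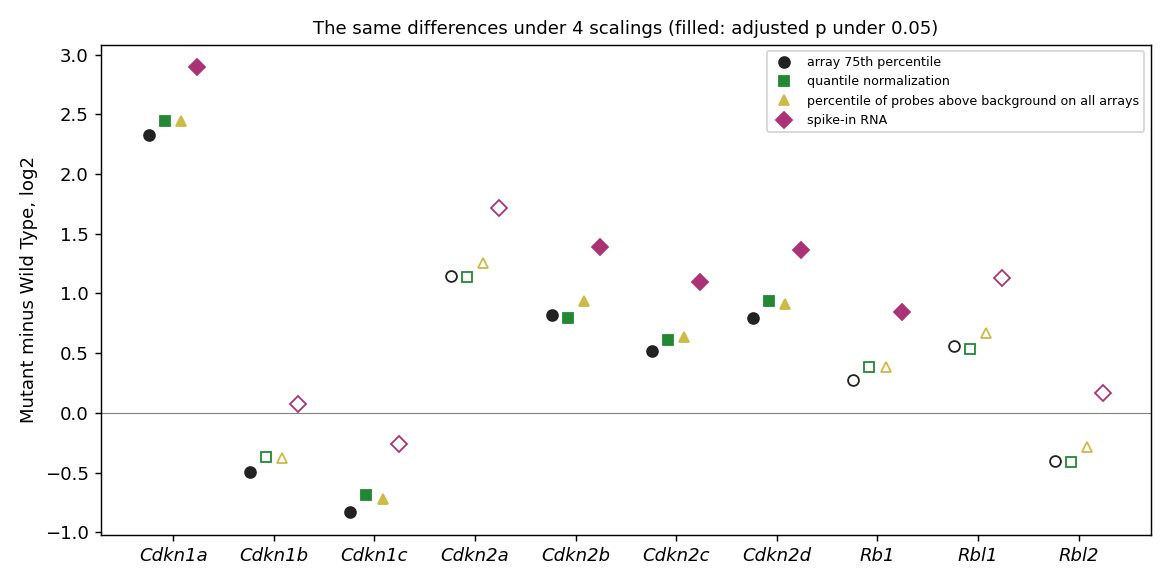
Mutant minus Wild Type on the log2 scale for the 10 genes under 4 scalings of the arrays; filled symbols are called. Cdkn1a, Cdkn2b, Cdkn2c and Cdkn2d were called higher under each of the 4, Cdkn1b turned from -0.49 to 0.08 and Rbl2 from -0.40 to 0.17 with spike-in RNA, and Cdkn1c went from -0.83 to -0.26.

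The kinases and factors these proteins restrain were read next from lists of pathway genes, described by counts and medians. For every list the shares of all genes were 16.1% called higher and 25.4% lower. Without Mutant_175 they were 19.3% and 29%. Of 20 measured cyclins and CDKs, 7 rose and 4 fell, with a median of 0.20. Cdk6, a target of INK4 proteins, rose by 1.21 (limma adjusted p = 0.011) and Cdc25b, a phosphatase that activates CDKs, by 1.23 (adjusted p = 0.0017). Ccnh, the cyclin of the CDK-activating kinase, fell by 1.08 (adjusted p = 0.00097), and with spike-in scaling stood at -0.51 and was not called. Without Mutant_175, 9 cyclin and CDK genes rose, and without any other 1 array between 2 and 4 did. Without any 1 Wild Type array, 1 fell.

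Of 10 E2F and DP factors, 3 rose and 1 fell, with a median of 0.43. E2f2, an activator held by Rb1, had signals of 0.0976, 0.0604 and 0.0992 in Wild Type and 0.836, 0.531, 0.615 and 0.274 in Mutant, a rise of 2.65 (limma adjusted p = 0.0015). No arrays of the groups overlapped, and the highest Mutant signal was that of Mutant_175. E2f3, another activator, rose by 1.57 (adjusted p = 0.00036). E2f6, a repressor that lacks the pocket protein binding domain, fell by 1.09 (adjusted p = 0.00046), and stood at -0.52 with spike-in scaling, where it was not called. Without Mutant_175, 5 of these factors rose and 2 fell.

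Of 9 MuvB and DREAM partners, 5 rose and 0 fell by limma (0 also at an unadjusted p under 0.05), with a median of 0.60. Lin37, a MuvB subunit, rose by 0.60 (limma adjusted p = 0.0058), Dyrk1a, the kinase that starts DREAM assembly, by 0.61 (adjusted p = 0.0069), and Mybl1, a MYB factor, by 1.09 (adjusted p = 0.011). Without Mutant_182, Mutant_188 or any 1 Wild Type array 3 of the 9 rose, and without Mutant_175 1 fell.

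Among 25 S-phase genes known to respond to E2F, 7 rose and 1 fell, with a median of 0.40. Rrm2, a subunit of ribonucleotide reductase, rose by 1.75 (limma adjusted p = 0.0014) and Uhrf1, which maintains DNA methylation, by 2.70 (adjusted p = 0.0063). Cdc45, a subunit of the replicative helicase, fell by 0.86 (adjusted p = 0.0011) and stood at -0.29 with spike-in scaling, where it was not called. The Cdc45 call was also lost when the mean over the probes of a gene was used. Without Mutant_175, 13 S-phase genes rose and 2 fell, and without any other 1 array 2 to 4 rose.

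Of 20 mitosis genes, 11 rose and 1 fell, with a median of 2.26. Birc5, the survivin gene, had signals of 0.513, 0.508 and 0.549 in Wild Type and 2.47, 5.70, 9.21 and 3.78 in Mutant, a rise of 3.17 (limma adjusted p = 0.00090). All Mutant arrays were above Wild Type, and Mutant_175 was the lowest of them. Bub1b, of the spindle checkpoint, rose by 2.19 (adjusted p = 0.00022) and Cenpa, the centromeric histone, by 2.90 (adjusted p = 0.00061). The 1 that fell was Cenpf, a kinetochore protein, at -3.46 (adjusted p = 0.0053), named after its value was seen. Its call was lost when the mean over the probes of a gene was used. The median mitosis gene stood 0.32 above Wild Type in Mutant_175, while the other Mutant arrays ranged from 2.23 to 3.43. Without Mutant_175 19 of the 20 rose, and without any other 1 array 5 to 9 did.

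Of 25 p53 pathway genes other than Cdkn1a, 7 rose and 6 fell, with a median of 0.13. Btg2, an antiproliferative gene, had signals of 3.66, 3.86 and 2.76 in Wild Type and 17.0, 19.1, 25.3 and 23.0 in Mutant, a rise of 2.62 (limma adjusted p = 8.6e-05), with all Mutant arrays well clear of Wild Type. Phlda3, an inhibitor of AKT, rose by 1.95 (adjusted p = 0.00019), and Gadd45b, a stress-response gene, fell by 1.44 (adjusted p = 0.00024), or to -0.87 with spike-in scaling, where it was still called. Without Wild Type_189, 6 genes of this list rose and 3 fell. In Mutant_175, where Cdkn1a was highest, the median gene of this list stood 0.08 above Wild Type, and the other Mutant arrays ranged from -0.10 to 0.08.

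The genes that turn these proteins over gave 3 higher and 3 lower of 16 measured, with a median of 0.08, where 16.1% of all genes were called higher and 25.4% lower. With quantile normalization 6 rose and 2 fell. Cks2, of the family of cofactors needed for p27 breakdown, rose by 1.93 (limma adjusted p = 0.0015) and Pim1, a kinase of p21 and p27, by 1.41 (adjusted p = 0.00020). Btrc, an F-box protein, fell by 0.69 (adjusted p = 0.0078), and stood at -0.12 with spike-in scaling, where it was not called. Without Mutant_175, 6 of these genes rose.

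Of 16 genes on a Polycomb list, 2 rose and 3 fell, with a median of -0.07. Most are Polycomb genes, whose products silence the Cdkn2a and Cdkn2b locus in many tissues. Kdm6a and Kdm6b, also on the list, are histone demethylases and not Polycomb repressors. Of all genes 16.1% were called higher and 25.4% lower. Cbx7 at -0.78 (limma adjusted p = 0.0064) and Cbx8 at -0.59 (adjusted p = 0.020) fell, both of them subunits of a Polycomb repressive complex. With spike-in scaling Cbx7 stood at -0.21 and Cbx8 at -0.03, neither called. Without any 1 Wild Type array 1 of the 16 fell, and without Wild Type_181 or Mutant_187 1 rose.

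The counts of these lists moved with scaling too. With spike-in scaling, where 37.3% of all genes were called higher and 7.4% lower, the higher calls came to 12 of 20 cyclins and CDKs, 5 of 10 E2F and DP factors, 7 of 9 MuvB and DREAM partners and 10 of 25 S-phase genes. They came to 18 of 20 mitosis genes, 10 of 25 p53 pathway genes, 8 of 16 turnover genes and 5 of 16 genes on the Polycomb list. Lower calls then remained in the mitosis list, 1, and the p53 list, 3, alone.

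**Figure D4:**
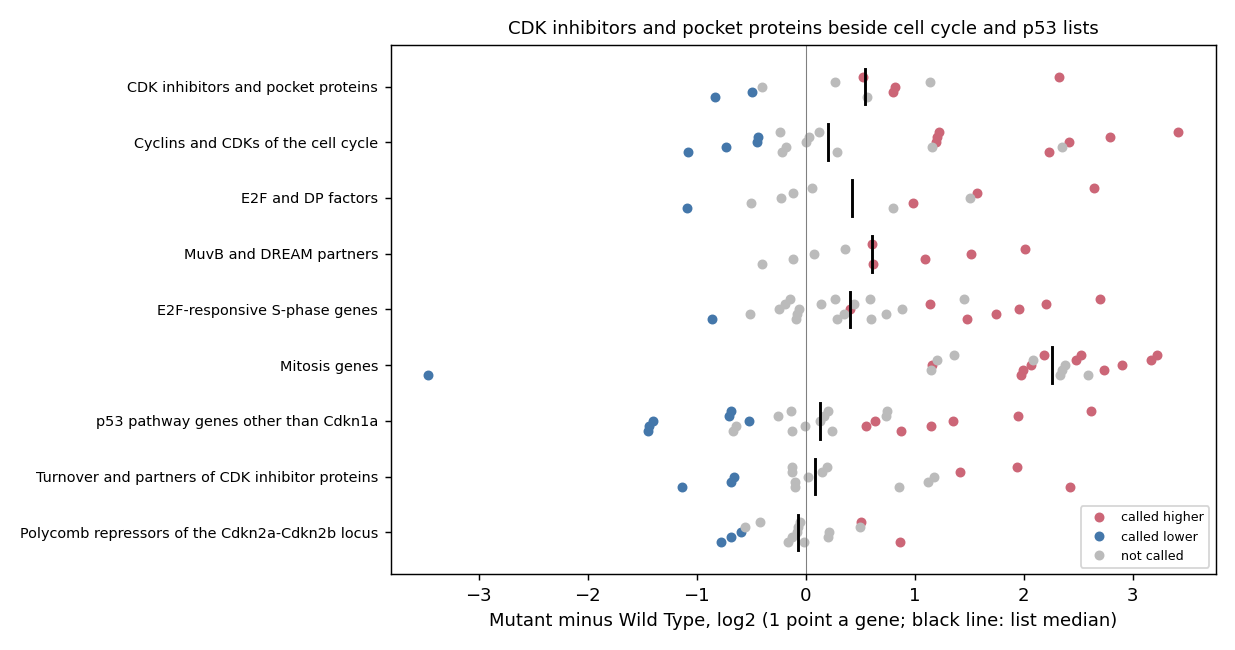
Mutant minus Wild Type on the log2 scale for each measured gene of the 10 CDK inhibitors and pocket proteins and of 8 pathway lists, 1 point a gene at its brightest usable probe; black lines are list medians and colours the calls under array percentile scaling. Mitosis genes have the highest median, 2.26, and the p53 pathway genes spread to both sides of 0; with spike-in scaling the lower calls left were 3 in the p53 list and 1 in mitosis.

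Markers of heart cell types moved with the groups, in RNA from heart tissue where fewer cells of a type and less RNA per cell cannot be told apart. Beside the marker counts, 16.1% of all genes were called higher and 25.4% lower. Of 14 cardiomyocyte markers 11 fell and 0 rose by limma (0 at an unadjusted p under 0.05), with a summed signal of 7243 to 7800 in Wild Type and 3082 to 4056 in Mutant. With quantile normalization or spike-in scaling 7 of the 14 fell. Fibroblast markers rose for 9 of 12 (sum 317 to 349 against 668 to 935), and macrophage and monocyte markers for 8 of 12 (153 to 164 against 166 to 285). Of 8 smooth muscle and pericyte markers 3 rose and 1 fell (120 to 129 against 440 to 535), with a median of 0.47 overall and 0.06 in Mutant_175. Acta2, smooth muscle actin, made up most of that sum in Mutant, at 381 to 465, and was named after its value was seen. Lymphocyte markers rose for 2 of 6 measured (6.73 to 9.05 against 9.41 to 13.7), for 5 without Mutant_175 and for at most 1 without any other 1 array, and Cd8a, Cd79a and Ms4a1 were too dim to be kept. Of 8 endothelial markers 1 rose and 2 fell (59.9 to 61.2 against 58.5 to 83.3), and of 6 measured neutrophil markers 1 rose and 2 fell (45.1 to 49.9 against 34.7 to 49.1). The neutrophil calls were unsteady, and neither fall was called with spike-in scaling, with dim probes kept in, or without Wild Type_183, Wild Type_189 or Mutant_188. Of 4 measured epicardial markers 2 rose, with a median of 1.33 (2.15 to 3.12 against 2.73 to 6.98), and Lrrn4, Upk1b and Upk3b were too dim to be kept. Defining cardiomyocyte markers were therefore present in every array, together with those of other heart cells. The part of these shifts in the values of the 10 genes was not tested.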

How the data were processed

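Spots were read with Agilent Feature Extraction 10.7.3.1, per the file headers, whose processed signal (linear intensity after background correction) was used together with its outlier and background flags. The authors also deposited a table of the same intensity values, rounded and neither centred nor scaled between arrays (99.6% of cells within 0.01 log2 of the scanner value; column medians 47.7, 45.9 and 50.8 in Wild Type and 65.5, 83.3, 80.9 and 61.1 in Mutant), used as an alternative only. Here outlier spots (82 to 146 of 59305 on each array) were left out, and each log2 signal was set against the 75th percentile of non-control probes on its array. That percentile was 630 to 713 in Wild Type and 837 to 1147 in Mutant. A probe was kept where 3 or more arrays had it well above background (34481 probes, with 17 of the 19 described). limma 3.58.1 in R 4.3.3 (lmFit, eBayes, no covariates) gave p-values, adjusted by Benjamini-Hochberg over all kept probes. Array number and signal limit the precision. Genes were named through probe accessions in a RefSeq table (GRCm38.p6; 32994 probes matched), and otherwise by the file's name. Members and lists were chosen with earlier results of these data known, and the method was tested on simulated data. The 3 genes with the smallest p among those called were named from each list, except 1 that is not reported here. Promoters were searched with Python 3.11.15, and figures were drawn with matplotlib 3.10.9.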

Additional observations from a re-analysis of the deposited data

How the results depend on the processing

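No paired analysis was possible because no replicate number is shared by samples of different groups. Slide columns are shared, and slide column as a block, added after seeing the data, called 5 genes higher and 3 lower. Cdkn2a (1.80), Rbl1 (1.06) and Rbl2 (-0.55) were gained and Cdkn2c was lost. With that block 4016 of all 22971 genes were called higher and 5760 lower, against 3689 and 5846 without it. Mutant_175 is alone in its column and so adds nothing to the difference between groups in that fit. Cdkn1a and Cdkn2d kept their direction and call in all 20 alternatives, with Cdkn1a from 1.09 (mean over its probes) to 2.90 (spike-in scaling) and limma adjusted p at most 0.0091 for either. The number of genes called higher, 4, ran from 2 (without Wild Type_189) to 6 when 1 array was left out. The number called lower, 2, was 1 with the mean over probes, no filter on dim probes, quantile normalization, or normexp followed by quantile normalization. It was also 1 with a percentile over probes that every array measured above background. It was 0 with spike-in scaling (0 at an unadjusted limma p under 0.05), and 0 to 3 when 1 array was left out. Of probes, 6 were called higher, against 10 with spike-in scaling and 4 to 8 when 1 array was left out. Probes called lower, 2, came to 1 with no filter, that percentile, quantile normalization, or normexp followed by quantile normalization. They came to 0 with spike-in scaling, and 0 to 3 when 1 array was left out. Values turned sign for the Cdkn1a probe A_55_P1986282 (-0.20 to 0.77 when 1 array was left out, the lowest without Wild Type_183). With spike-in scaling, which moved the median of all genes by 0.57, Cdkn1b (0.076) and Rbl2 (0.17) turned sign too. The cause of the first turn, and of the gap between the scalings, was not tested. Array weights called Cdkn2a (1.49), Rbl1 (0.78) and Rbl2 (-0.48). With those weights 4777 of all 22971 genes were called higher and 7208 lower, against 3689 and 5846 without them. Signal over background limits Cdkn2a, the dim Cdkn1a probes and Rbl1 variant 2.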

Other observations

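Cdkn2d, the member with the smallest p, was set against the other genes called at their brightest probe, over the log2 values of the 7 arrays. The called genes numbered 7028 with Cdkn2d itself counted and predicted and clone names left out. The highest Pearson r were those of Tuba1a, an alpha-tubulin gene (0.9999, difference 3.38), Osbpl10, of the oxysterol-binding protein family (0.9994, difference 1.37), and Ndnf, a secreted factor first described in neurons (0.9993, difference 4.58). The points share their arrays and fall into 2 groups, so each r is a description with no test.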
